A study of Mus musculus with 12 samples.

Results

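The data are RNA levels of activated B cells from mice that lack Mzb1 (ko), set against those of mice that have it (wt). They were chosen by the titles of the libraries, which put 2 ko and 2 wt libraries in this population, 4 of the 12 libraries of the series. The ko cells were Mzb1-/- Prdm1+/gfp and the wt cells Mzb1+/+ Prdm1+/gfp, on a C57BL/6 background, and the labels give no age. Every mouse thus carried a green fluorescent protein reporter in 1 allele of Prdm1, the gene of the transcription factor Blimp1. B cells were taken from the spleen with B220 beads and stimulated for 4 days with lipopolysaccharide (LPS), a bacterial cell wall component, at 25 µg/ml. Cells negative for CD138 and for the reporter were sorted as activated B cells. The other 8 libraries are pre-plasmablasts, positive for the reporter alone, and plasmablasts, positive for both, with 2 ko and 2 wt libraries each. The gate itself sets low levels of Prdm1 and of the CD138 gene Sdc1 here. The labels give the genotype of the mouse and name no cell-type-specific Cre, and they do not say which part of Mzb1 was removed. They also do not say that replicates came from separate animals, so the p-values measure only the spread between these libraries. That spread may be technical in ko, while the wt replicates differ in sex-linked transcripts.

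Mzb1 is a resident of the endoplasmic reticulum (ER), found mainly in B-lineage cells. It works as a co-chaperone of Hsp90b1, also called Grp94, a chaperone whose clients include integrins and Toll-like receptors. LPS drives splenic B cells to divide, and a fraction of them turns on Blimp1, which shuts off the B cell programme and starts antibody secretion. The cells described here had not turned on the reporter at the time of the sort.

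The libraries were of similar size, with 430170 and 462257 FPKM in total in ko and 418966 and 451288 FPKM in wt. FPKM are fragment numbers scaled to transcript length and to library size. Small RNA genes took 2.32% and 5.76% of the total in ko and 2.38% and 1.66% in wt. The libraries stood apart in 2 ways that the genotype does not name. In wt replicate 1, Xist, the transcript of the inactive X chromosome, was at 81.4 FPKM, while 3 genes of the Y chromosome (Kdm5d, Uty and Eif2s3y) stood at 0. The other 3 libraries had Xist at no more than 0.161 FPKM and Ddx3y at 15.7 FPKM or more. In ko replicate 2, the low values followed another arithmetic pattern than in the other 3 libraries, as they did in 3 ko libraries of the other populations. Results are given below without these libraries where that ends a call. The cells had the markers of their label. All 8 B cell markers were expressed, with summed levels of 9871 and 11823 FPKM in ko and 8766 and 10632 FPKM in wt. The 11 T cell markers summed to between 1.59 and 2.85 FPKM over the 4 libraries, and the 8 granulocyte markers in the files to at most 0.437 FPKM. The 10 macrophage and monocyte markers summed to 38.5 and 23.1 FPKM in ko and 17.995 and 23.9 FPKM in wt. C1qa and C1qc were at 0 in all 4 libraries. Most of the sum was Adgre1, at 28.2 and 12.6 FPKM in ko and 7.84 and 13.2 FPKM in wt, and Cd68. The 7 dendritic cell markers summed to 24.3 and 19.1 FPKM in ko and 23.6 and 20.9 FPKM in wt, most of it Flt3. From which cells these transcripts came was not tested.

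Mzb1 RNA was lower in the ko libraries, and not gone. The ko libraries had 273 and 289 FPKM, against 845 and 1016 FPKM in wt. Both wt libraries stood above both ko libraries, and the ko mean was 30.2% of the wt mean. The means were 281 ± 11.9 FPKM in ko and 931 ± 121 FPKM in wt (SD, n = 2). On log2(FPKM + 1), the scale of all log2 changes here, Mzb1 fell by 1.72 (SE 0.13, 95% interval -2.002 to -1.44), with an adjusted p of 0.000325. The test is limma's moderated test, two-sided, with Benjamini-Hochberg adjustment over 11069 genes, and a gene is called at an adjusted p below 0.05. The values are per gene, so from which exons the remaining fragments came was not analysed here. Fitted on the 4 libraries of this population alone, Mzb1 had an adjusted p of 0.0713.

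The difference in Mzb1 was smallest in this population, the one with the least Mzb1 RNA in wt. Pre-plasmablasts had 899 and 871 FPKM in ko, against 10066 and 9926 FPKM in wt, and the log2 change was -3.50. Plasmablasts had 1008 and 926 FPKM in ko, against 15434 and 17359 FPKM in wt, and the log2 change was -4.08. Expressed as ko over wt, the change in activated B cells lay 1.78 log2 units above that in pre-plasmablasts (SE 0.18, limma interaction, adjusted p = 0.00697) and 2.36 above that in plasmablasts (adjusted p = 0.000434). The first of these calls was lost without ko replicate 1 (adjusted p = 0.0613), with no filter (0.153), without the wt libraries numbered 1 (0.221) and on libraries of 1 arithmetic pattern alone (0.243). In these bulk samples, fewer cells with a transcript and less of it per cell cannot be told apart.

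Few genes passed the test between ko and wt activated B cells. limma called 6 of 11069 genes (0.0542%), 2 higher (0.0181%) and 4 lower (0.0361%) in ko. The lower genes were Mzb1, Coro2a, Snora28 and Pira7, and the higher genes were Tusc1 and Pira4. An unadjusted p below 0.05 was reached by 893 genes (8.07%), 490 of them higher and 403 lower. The ko and wt libraries did not overlap in 3983 genes (36.0%), so a lack of overlap in a named gene is common. Both ko libraries were higher in 2021 of them and lower in 1962. The 95% interval of the change lay within 1 log2 unit of 0 for 10696 genes (96.6%), with a median half-width of 0.28.

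**Figure D1:**
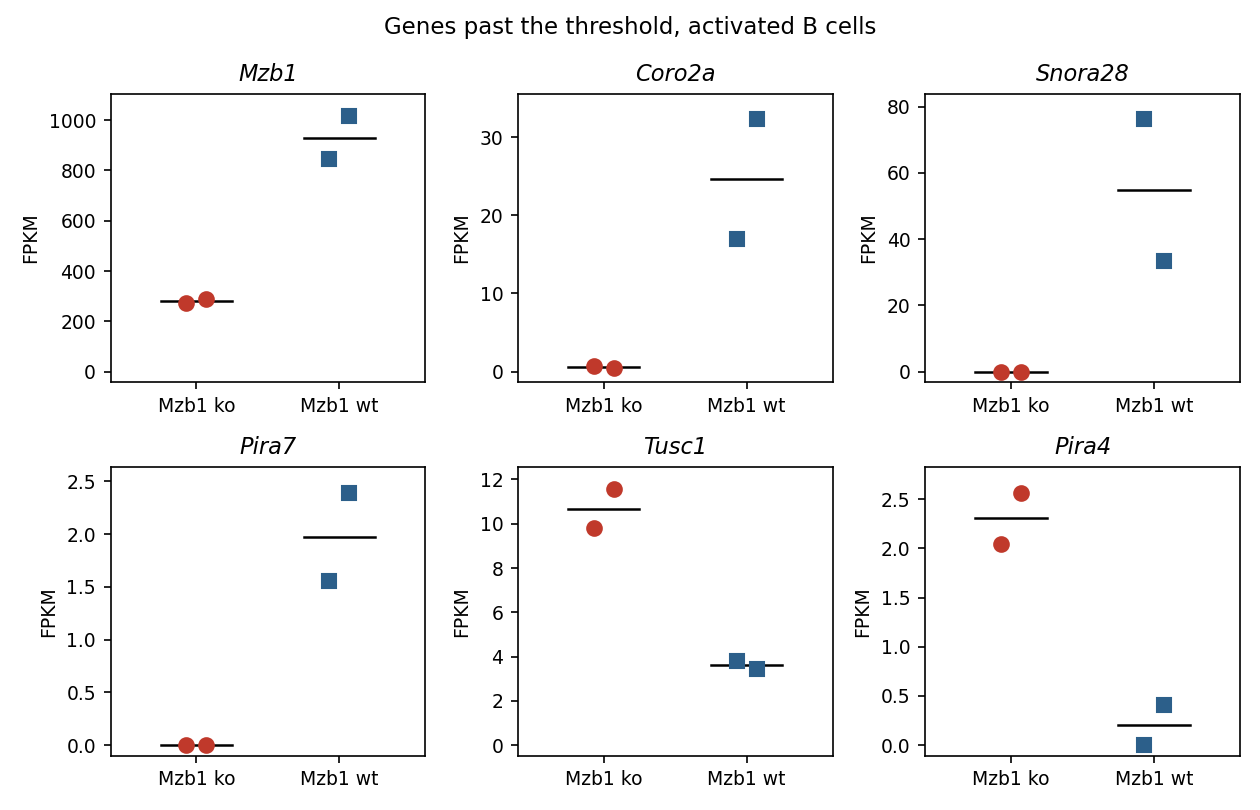
FPKM of the 6 called genes in each library of activated B cells, with ko libraries as circles on the left, wt libraries as squares on the right and lines at the means. Mzb1, Coro2a, Snora28 and Pira7 are lower in both ko libraries and Tusc1 and Pira4 are higher in both, with no overlap between the groups.

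Coro2a, which encodes a coronin that binds actin and is also a subunit of a nuclear corepressor complex, had the largest change among the called protein-coding genes. It was at 0.706 and 0.406 FPKM in ko, against 17.03 and 32.3 FPKM in wt. Both ko libraries were under the 1 FPKM used as a filter here, and both wt libraries were far above it but differed widely from each other. The means were 0.556 ± 0.212 FPKM in ko and 24.7 ± 10.8 FPKM in wt (SD, n = 2), and Coro2a fell by 3.98 (SE 0.35, interval -4.76 to -3.21, adjusted p = 0.00119). Coro2a was also near or under 1 FPKM in ko cells of the other populations. Pre-plasmablasts had 1.11 and 0.720 FPKM in ko, against 44.1 and 77.5 FPKM in wt, and plasmablasts had 1.16 and 0.786 FPKM in ko, against 37.8 and 70.2 FPKM in wt. The ko effect in activated B cells differed from that in pre-plasmablasts by 0.98 and from that in plasmablasts by 0.76, neither of which was called (adjusted p = 1.00 for both). The call was lost on the 4 libraries of this population alone (adjusted p = 0.0522) and on libraries of 1 arithmetic pattern alone (adjusted p = 0.0956).

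The 5 other coronins tested did not pass. Coro1a, the abundant coronin of leukocytes, had 1133 and 1413 FPKM in ko, against 1041 and 1279 FPKM in wt, so that the groups overlapped. Coro1b had 224 and 247 FPKM in ko, against 182 and 220 FPKM in wt (log2 change 0.23, adjusted p = 0.599). Coro1c, Coro2b and Coro7 had log2 changes of 0.02, -0.14 and 0.17. Among all 46 tested coronins and actin regulators, Coro2a was the only gene called, 30 had a log2 change above 0 and 16 below, and the median was 0.06, against 0.01 over all 11069 genes. The Arp2/3 complex and its activators, which nucleate branched actin filaments, lay between -0.08 and 0.22. Among them the WAVE subunit Wasf2 had 82.4 and 82.7 FPKM in ko, against 66.6 and 75.1 FPKM in wt (log2 change 0.22, adjusted p = 0.547).

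Tusc1, a tumour suppressor candidate by its name, was higher in cells without Mzb1. It was at 9.80 and 11.6 FPKM in ko, against 3.82 and 3.45 FPKM in wt. Both ko libraries lay well above both wt libraries, and replicates were close to each other. The means were 10.7 ± 1.2 FPKM in ko and 3.63 ± 0.26 FPKM in wt (SD, n = 2), and Tusc1 rose by 1.33 (SE 0.16, interval 0.98 to 1.68, adjusted p = 0.0134). The log2 change kept its sign in each of 17 settings, from 1.197 to 1.53. The call rested on all 4 libraries, since leaving out any 1 of them gave an adjusted p between 0.0919 and 0.111. Pre-plasmablasts had 7.71 and 9.86 FPKM in ko, against 2.09 and 2.52 FPKM in wt, and plasmablasts had 8.77 and 6.55 FPKM in ko, against 2.45 and 2.64 FPKM in wt.

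Cdkn2a, which lies near Tusc1 on chromosome 4 and encodes the growth inhibitors INK4A and ARF, had 49.3 and 47.5 FPKM in ko, against 23.7 and 25.3 FPKM in wt. The libraries did not overlap and replicates were close, but the gene did not pass over all genes (log2 change 0.95, adjusted p = 0.161). In the later populations the values ran the other way. Pre-plasmablasts had 52.4 and 70.6 FPKM in ko, against 120 and 93.3 FPKM in wt, and plasmablasts had 80.6 and 103 FPKM in ko, against 206 and 177 FPKM in wt. The difference of the ko effect in activated B cells was 1.75 from pre-plasmablasts (adjusted p = 0.0466) and 2.01 from plasmablasts (adjusted p = 0.0128). Without 1 library of activated B cells at a time, the first difference was called in 0 of 4 fits (adjusted p 0.113 to 0.348) and the second in 1 of 4 (0.0385 to 0.0956). In wt cells Cdkn2a RNA was thus lowest in activated B cells, and in ko cells its levels in activated B cells and pre-plasmablasts were closer together.

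Snora28, a small nucleolar RNA, was listed at 0 in both ko libraries, against 76.2 and 33.5 FPKM in wt. It was listed at 0 in all 8 libraries of the other populations too, wt included. Small nucleolar RNAs of this class, named after their H and ACA sequence boxes, guide the conversion of uridine to pseudouridine and are cut from introns of host genes. Snora28 lies within Eif5 on chromosome 12, the gene of a translation initiation factor, and its host was measured well. Eif5 had 70.9 and 69.4 FPKM in ko, against 80.8 and 78.6 FPKM in wt (log2 change -0.18, adjusted p = 0.611). limma called Snora28 (adjusted p = 1.24e-05). It passed the filter on low values only through the 2 wt libraries of activated B cells, and the other 10 libraries of the series are at 0. The spread in the test is averaged over the 6 groups, and those 10 libraries add none to it. The adjusted p thus does not measure the spread between the 2 wt libraries alone. The log2 change of Snora28 has no fixed size, being -5.69 with a pseudocount of 1 and -8.98 with 0.1.

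Snora65, another RNA of this class, showed the opposite order, and was at 33.1 and 49.3 FPKM in ko and listed at 0 in both wt libraries (adjusted p = 0.294). It passed the filter only through ko libraries, these 2 and replicate 1 of pre-plasmablasts (40.2 FPKM), and was listed at 0 in every wt library. It was called on the libraries of this population alone and on libraries of 1 arithmetic pattern alone. The second of these fits leaves ko replicate 1 without a replicate and every wt value at 0, so it measures no spread for this gene. Snora65 lies within Rpl12 on chromosome 2, a ribosomal protein gene that had 5.36 and 5.19 FPKM in ko, against 5.43 and 5.57 FPKM in wt. Both sequences are shown because, within this class, only these RNAs were listed at 0 in both libraries of a group and above 0 in both of the other. They were read from the GENCODE M21 transcripts (GRCm38), both from the + strand, with 127 bases for Snora28 and 130 for Snora65. Capitals mark the last ACA, the box near the end of these RNAs, which stands 2 bases before the end in Snora28 and 3 in Snora65.
Snora28: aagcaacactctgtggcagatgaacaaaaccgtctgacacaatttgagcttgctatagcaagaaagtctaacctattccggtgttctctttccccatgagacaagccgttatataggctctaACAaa
Snora65: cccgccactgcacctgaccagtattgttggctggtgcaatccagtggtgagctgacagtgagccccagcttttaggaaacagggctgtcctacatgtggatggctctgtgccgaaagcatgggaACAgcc
Small RNA genes as a class gave uneven values in these libraries. Per the labels, RNA was selected by oligo-dT. Whether a listed 0 or a listed value of these short RNAs reflects their amount in the cells was not tested. Of 1282 in the files 39 were tested and 1 was called, and 17 were at 0 in 1 library of a group and above 10 FPKM in the other. Rmrp, the RNA of a ribonuclease, had 16.2 and 3.90 FPKM in ko, against 0.950 and 1.80 FPKM in wt, and Rpph1, that of ribonuclease P, had 13.6 and 99.1 FPKM in ko, against 289 and 131 FPKM in wt. Neither passed (adjusted p = 0.448 for Rmrp and 0.631 for Rpph1). Genes used by every cell can also be near 0 in a library, such as the ribosomal protein gene Rpl26, which had 3.7999 and 0.000405 FPKM in ko, against 12.3 and 4.01 FPKM in wt.

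Pira4 and Pira7, which encode activating paired immunoglobulin-like receptors, moved in opposite directions. Pira7 was at 0.000677 and 0.000396 FPKM in ko, against 1.56 and 2.39 FPKM in wt (log2 change -1.56, SE 0.17, adjusted p = 0.00801). Pira4 was at 2.05 and 2.57 FPKM in ko, against 2.89e-16 and 0.410 FPKM in wt (1.47, SE 0.19, adjusted p = 0.0200). These genes are near-identical copies, between which fragments can be divided in more than 1 way, so both changes are uncertain. Each of them reached 1 FPKM only in the 2 libraries of its higher group, and so passed the filter through that group. In the other populations Pira7 had up to 0.00198 FPKM and Pira4 up to 0.213 FPKM. Those libraries add little to the pooled spread, so the p-values may understate the spread in activated B cells. The 6 Pira genes summed to 3.97 and 5.74 FPKM in ko, against 2.98 and 5.26 FPKM in wt, and these sums overlapped. Pirb, the inhibitory partner, had 21.2 and 28.8 FPKM in ko, against 21.7 and 28.5 FPKM in wt. How fragments were divided between Pirb and the Pira genes was not tested. The inhibitory receptor gene Lilrb4a had 1.602 and 2.2007 FPKM in ko, against 4.29 and 4.75 FPKM in wt (-0.93, adjusted p = 0.214). Both Pira calls were lost with a pseudocount of 0.1, and with 1 library left out Pira4 was called only without wt replicate 2 and Pira7 only without wt replicate 1, with adjusted p up to 0.132 and 0.0984 otherwise.

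Chaperones of the ER had lower values in ko, and none but Mzb1 was called. Hsp90b1, the partner of Mzb1, had 419 and 456 FPKM in ko, against 606 and 590 FPKM in wt. The libraries did not overlap, and the change was -0.45 (interval -0.73 to -0.17, unadjusted p = 0.00528, adjusted p = 0.433). Hspa5, the ER Hsp70 known as BiP, had 359 and 396 FPKM in ko, against 492 and 463 FPKM in wt (-0.34, adjusted p = 0.499). In pre-plasmablasts and plasmablasts the changes of Hsp90b1 were -0.07 and -0.07, and those of Hspa5 were 0.12 and 0.15. Of the 13 tested genes of the list of Mzb1, Grp94 and canopy co-chaperones, 9 had a change below 0, 5 of them at an unadjusted p below 0.05, and the median was -0.19. Mzb1 itself is counted among the 9 and among the 5. Over all 11069 genes 48.5% lay below 0, and 403 were lower at that p. The 3 tested canopy proteins, of which some act on Toll-like receptors, lay between -0.13 and 0.11.

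The list of ER folding and quality control had 35 tested genes, 0 of them called. At an unadjusted p below 0.05 the list had 7 genes, all lower in ko, where 403 of all 11069 genes were lower. Its median was -0.12, 26 genes lay below 0 and 9 above, and 16 had both ko libraries below both wt libraries (45.7%, against 17.7% of all tested genes). By role, 10 of 11 disulfide isomerases and oxidases lay below 0, 5 of 6 lectin chaperones and 3 of 3 prolyl isomerases, while the stress sensors and factors had 4 above and 2 below. Canx, a lectin chaperone of new glycoproteins, had 119 and 116 FPKM in ko, against 142 and 135 FPKM in wt (-0.23, adjusted p = 0.496). Manf, which is secreted under ER stress, had 73.9 and 76.2 FPKM in ko, against 92.6 and 97.4 FPKM in wt (-0.34, adjusted p = 0.427). Fkbp11, an ER prolyl isomerase that rises with plasma cell differentiation, had 1.92 and 3.10 FPKM in ko, against 4.92 and 4.87 FPKM in wt (-0.77, adjusted p = 0.167). Without ko replicate 2 Fkbp11 was called (-1.01, adjusted p = 0.0111).

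Of 28 tested genes of plasma cell identity, 11 lay above 0 and 17 below, and 0 were called. At an unadjusted p below 0.05, 1 was higher and 6 lower, against 490 and 403 of all 11069 genes. Fkbp11 and Xbp1, both among the 6, are also in the list of ER folding and quality control. By role, 3 of the transcription and elongation factors lay above 0 and 5 below, 8 of the surface and secreted proteins above and 6 below, and all 6 ER and Golgi proteins below. The higher gene was Ly6c2, a surface protein, with 1.47 and 1.67 FPKM in ko, against 0.850 and 0.543 FPKM in wt (0.60, adjusted p = 0.568). Jchain, the chain that joins polymeric antibodies, had 14.3 and 39.2 FPKM in ko, against 69.4 and 103 FPKM in wt. The groups did not overlap, but the ko replicates differed widely, and the change of -1.79 (interval -2.57 to -1.004) had an adjusted p of 0.206. Without ko replicate 2 it was -2.48 (adjusted p = 0.0066), and without ko replicate 1 it was -1.09 (adjusted p = 0.383). In pre-plasmablasts and plasmablasts, where Jchain is abundant, the changes were -0.45 and -0.22. Xbp1, which drives expansion of the secretory apparatus, had 76.5 and 86.8 FPKM in ko, against 99.7 and 105 FPKM in wt (-0.33, adjusted p = 0.433). The elongation factor Ell2 had 17.3 and 18.3 FPKM in ko, against 21.6 and 23.1 FPKM in wt (-0.31, adjusted p = 0.373). Bhlha15, also known as Mist1, a factor of secretory cells, had 1.96 and 2.73 FPKM in ko, against 4.39 and 4.44 FPKM in wt (-0.70, adjusted p = 0.181), and was called with the replicate number as a block (adjusted p = 0.0356). The genes used for the gate were close in both groups. Prdm1 had 19.9 and 25.4 FPKM in ko, against 21.6 and 19.2 FPKM in wt, and Sdc1 had 0.989 and 1.43 FPKM in ko, against 0.989 and 0.978 FPKM in wt, with overlap in both. The 6 plasma cell markers, a list that shares genes with this one, summed to 191 and 223 FPKM in ko, against 268 and 293 FPKM in wt. Jchain and Xbp1 carry that difference, while the marker Irf4, a factor that acts in both B cells and plasma cells, had 79.3 and 70.7 FPKM in ko, against 76.2 and 64.5 FPKM in wt. The part of a different number of cells on their way to plasmablasts was not tested.

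B cell identity genes had the opposite tendency, with 31 of 39 tested members above 0, a median of 0.16, and 0 called. At an unadjusted p below 0.05, 6 were higher and 0 lower, against 490 and 403 of all 11069 genes. In 15 members both ko libraries lay above both wt libraries (38.5%, against 18.3% of all tested genes). The median ranged from 0.05 to 0.18 over the settings. Pax5, the factor that maintains B cell identity, had 190 and 191 FPKM in ko, against 151 and 147 FPKM in wt (0.35, adjusted p = 0.515). Cd72, an inhibitory co-receptor, had 219 and 195 FPKM in ko, against 152 and 146 FPKM in wt (0.47, adjusted p = 0.430). Blk, a Src-family kinase, had 174 and 165 FPKM in ko, against 124 and 143 FPKM in wt (0.34, adjusted p = 0.433). The receptor for IgM, Fcmr, had 174 and 157 FPKM in ko, against 120 and 121 FPKM in wt (0.45, adjusted p = 0.478). In each of these 4 the ko libraries were both higher. Pax5 and Cd72 lie on chromosome 4, Blk on chromosome 14 and Fcmr on chromosome 1. Pax5 and Cd72 were called in plasmablasts (1.17, adjusted p = 0.0031, and 0.91, adjusted p = 0.0148), where they are far less abundant. Both of these calls were lost with a term for the arithmetic pattern and without the wt libraries numbered 1. MHC class II genes and their co-stimulators had a median of 0.06, with 12 of 16 above 0 and none at an unadjusted p below 0.05.

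Genes of Toll-like receptors, their adaptors and LPS recognition had slightly higher values in ko as a list, none of them called. Of 26 Toll-like receptor and LPS recognition genes, 23 lay above 0, with a median of 0.09 and 4 higher at an unadjusted p below 0.05. Over all 11069 genes 51.4% lay above 0, and 490 were higher at that p. Irak2, a kinase of the pathway, had 43.8 and 49.8 FPKM in ko, against 35.8 and 36.9 FPKM in wt (0.35, adjusted p = 0.308), and Tlr9, the receptor for microbial DNA, had 65.7 and 68.6 FPKM in ko, against 55.2 and 54.8 FPKM in wt (0.28, adjusted p = 0.581). The NF-kappaB and LPS-induced genes had 28 of 42 members above 0 and a median of 0.11, with 8 higher and 1 lower at an unadjusted p below 0.05 and 0 called. Of their 16 subunits and inhibitors 14 lay above 0. Nfkbiz, a nuclear inhibitor protein of the family, had 55.0 and 43.3 FPKM in ko, against 31.2 and 33.7 FPKM in wt (0.58, adjusted p = 0.206). Nfkb2, a subunit of the non-canonical pathway, had 83.1 and 86.5 FPKM in ko, against 68.8 and 73.2 FPKM in wt (0.25, adjusted p = 0.490). Bcl2a1a, a survival gene of a family of close copies whose value is therefore uncertain, had 1.61 and 2.28 FPKM in ko, against 0.714 and 0.548 FPKM in wt (0.84, adjusted p = 0.206). It reached 1 FPKM only in these 2 ko libraries, and so passed the filter through the group where it is higher.

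**Figure D2:**
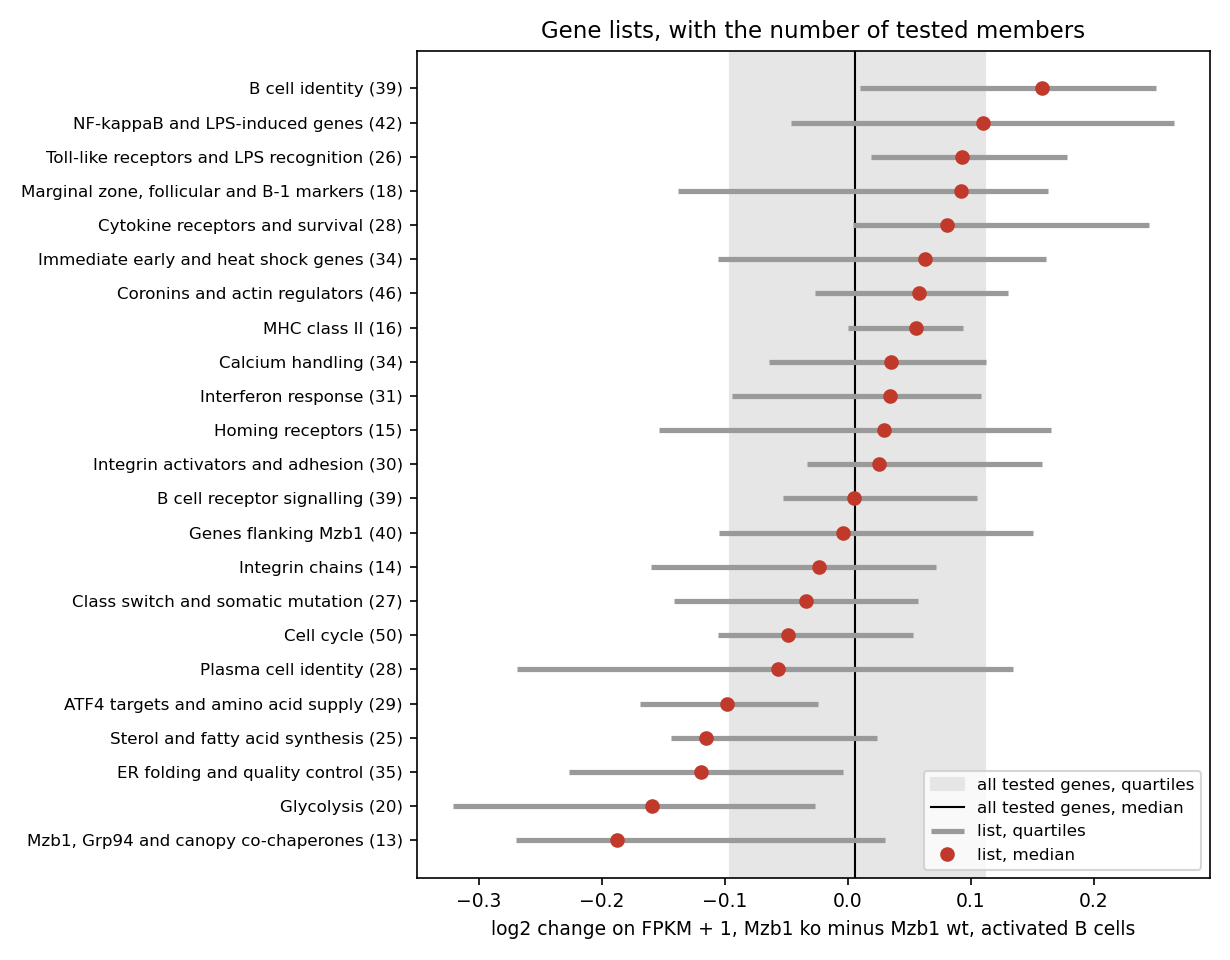
Median log2 change of ko over wt activated B cells on FPKM + 1 (horizontal axis) for 23 gene lists, all but the paired receptors and the sex-linked transcripts, with the number of tested members in brackets, bars from the lower to the upper quartile, and the quartiles of all 11069 tested genes in grey. The medians shown lie between -0.19 for Mzb1, Grp94 and canopy co-chaperones and 0.16 for B cell identity.

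The integrins, clients of Hsp90b1, did not pass at the RNA level. Itgb1, the beta1 chain named in the title of the series, had 122 and 135 FPKM in ko, against 137 and 168 FPKM in wt. Both ko libraries were lower than both wt libraries, with a change of -0.24 (interval -0.49 to 0.00, adjusted p = 0.622). Its partner Itga4, the alpha4 chain, had 11.9 and 16.0 FPKM in ko, against 19.1 and 14.8 FPKM in wt, with overlap. The leukocyte chains Itgb2, Itgal and Itgb7 had changes of -0.01, 0.20 and 0.06. Itgam, the alphaM chain, had 98.0 and 122 FPKM in ko, against 78.7 and 77.4 FPKM in wt (0.48, adjusted p = 0.499). It rose in pre-plasmablasts, where it is much less abundant, with 14.3 and 12.1 FPKM in ko, against 3.44 and 2.46 FPKM in wt (1.85, adjusted p = 0.000994). In all, 6 of 14 integrin chains lay above 0 and 8 below, with a median of -0.02, and 0 were called, with 1 higher and 0 lower at an unadjusted p below 0.05. Among 30 integrin activators and adhesion genes 0 were called. The focal adhesion adaptor Pxn, the only one at an unadjusted p below 0.05, had 72.6 and 70.2 FPKM in ko, against 49.6 and 60.7 FPKM in wt (0.37, adjusted p = 0.399). The 15 tested homing receptors had a median of 0.03, with 8 above 0 and 7 below, and 0 were called or reached an unadjusted p below 0.05.

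Cell cycle genes other than Tusc1 did not pass, and their roles lay on both sides of 0. Of 20 replication genes 17 lay below 0, as did 15 of 18 mitosis genes, with medians of -0.09 and -0.08. Of 12 inhibitors and growth suppressors, the group that holds Tusc1, 10 lay above 0. Cdkn1a, the inhibitor induced by p53, had 168 and 117 FPKM in ko, against 84.2 and 111 FPKM in wt (0.53, adjusted p = 0.581). Cdkn1b, an inhibitor of quiescent cells, had 22.6 and 26.7 FPKM in ko, against 19.01 and 20.97 FPKM in wt (0.29, adjusted p = 0.572). Cytokine receptors and survival genes had 21 of 28 members above 0 (median 0.08) and 0 called. At an unadjusted p below 0.05, 4 were higher and 1 lower, against 490 and 403 of all 11069 genes. Of the 13 tested Bcl2 family genes in this list, 9 lay above 0 and 4 below. The death genes Bmf and Bbc3 and the survival gene Bcl2 had higher values in ko. The death gene Pmaip1 went the other way, with a log2 change between -0.36 and -0.22 over the settings. Bmf had 6.98 and 7.57 FPKM in ko, against 4.67 and 4.80 FPKM in wt (0.53, adjusted p = 0.447). Bbc3 had 72.8 and 75.6 FPKM in ko, against 49.4 and 56.9 FPKM in wt (0.48, adjusted p = 0.496). Bcl2 had 29.3 and 27.3 FPKM in ko, against 20.7 and 23.0 FPKM in wt (0.36, adjusted p = 0.499).

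Metabolic lists lay below 0, with 0 genes called. Of 20 glycolysis genes 16 were below 0, with a median of -0.16 and 5 lower at an unadjusted p below 0.05. Over all 11069 genes 48.5% lay below 0, and 490 were higher and 403 lower at that p. The enzyme Tpi1 had 155 and 149 FPKM in ko, against 199 and 193 FPKM in wt (-0.37, adjusted p = 0.433). The lactate carrier Slc16a1 had 13.96 and 13.95 FPKM in ko, against 20.5 and 18.5 FPKM in wt (-0.45, adjusted p = 0.502). Of 29 genes of ATF4 targets and amino acid supply, 23 lay below 0, among them all 9 transporters, with a median of -0.10 and with 3 higher and 5 lower at an unadjusted p below 0.05. Against that order, the ATF4 targets Sesn2 (51.3 and 46.1 FPKM in ko, against 33.0 and 39.8 FPKM in wt) and Chac1 (13.4 and 10.2 FPKM in ko, against 9.49 and 8.27 FPKM in wt) had higher values. Sterol and fatty acid synthesis had 17 of 25 genes below 0 (median -0.12) and 0 at an unadjusted p below 0.05. Immediate early genes had 18 of 23 above 0 (median 0.13) and heat shock genes 8 of 11 below (median -0.11), with Btg1 at 118 and 113 FPKM in ko, against 87.5 and 99.5 FPKM in wt, and the mitochondrial chaperone Hspd1 at 67.2 and 57.4 FPKM in ko, against 87.9 and 77.9 FPKM in wt. B cell receptor signalling, calcium handling, class switch and interferon response genes had medians of 0.00, 0.04, -0.03 and 0.03, none of them with a called member. An unadjusted p below 0.05 was reached by 4 of 39, 3 of 34, 3 of 27 and 3 of 31 of their genes, in that order of lists. Over all tested genes the share was 8.07%. Markers of marginal zone, follicular and B-1 cells, a list that holds Mzb1, had 11 of 18 genes above 0 and a median of 0.09, and none but Mzb1 was called.

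Among genes that were not called, the 2 lowest p-values belonged to Hyi and Reep5, both higher in ko. Hyi, a homologue of hydroxypyruvate isomerase, had 14.9 and 10.6 FPKM in ko, against 4.37 and 4.32 FPKM in wt (1.35, adjusted p = 0.0943). Reep5, which shapes ER tubules, had 75.1 and 76.2 FPKM in ko, against 42.5 and 53.2 FPKM in wt (0.66, adjusted p = 0.0943). The gene lies on chromosome 18, which also holds Mzb1. Reep5 was called after quantile normalization (adjusted p = 0.0178), with equal totals (0.0132) and without wt replicate 2 (0.0222), and it rose in pre-plasmablasts and plasmablasts by 1.00 each. The plasmablast call was lost with a term for the arithmetic pattern. The next higher genes were Gm8615, Cdkn2a, Rpl10a, Pink1, Ssbp3, Chst15, Calcoco1 and Nfkbiz. Of these, Pink1, a kinase of mitochondrial quality control, had 34.9 and 36.0 FPKM in ko, against 21.05 and 26.3 FPKM in wt, and Chst15, a chondroitin sulfotransferase, had 10.4 and 10.2 FPKM in ko, against 6.25 and 7.24 FPKM in wt. Hyi, Cdkn2a, Pink1, Ssbp3 and, among the lower genes that follow, Cep85 lie on chromosome 4. The lower genes, after Fkbp11 and Bhlha15, were Ndufaf2, Jchain, Lilrb4a, Ppa1, Rgs10, Ly6a, Rsl1d1 and Cep85. Ly6a, the surface protein Sca-1, had 109 and 170 FPKM in ko, against 255 and 262 FPKM in wt (-0.92, adjusted p = 0.243). Ndufaf2, an assembly factor of respiratory complex I, had 26.3 and 23.0 FPKM in ko, against 34.7 and 37.7 FPKM in wt (-0.54, adjusted p = 0.206). Rgs10, a regulator of G protein signalling, had 8.197 and 5.32 FPKM in ko, against 12.8 and 25.7 FPKM in wt (-1.33, adjusted p = 0.234), and was called without wt replicate 1.

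In the populations that had turned on the reporter the same test called 13 genes in pre-plasmablasts (0.117%), 11 higher (0.0994%) and 2 lower (0.0181%), and 45 in plasmablasts (0.407%), 29 higher (0.262%) and 16 lower (0.145%). With equal totals these were 19 higher and 5 lower, and 60 higher and 12 lower, and with quantile normalization the pre-plasmablast split was 12 and 8. Of the 49 genes called in either, 3 were called in activated B cells (Mzb1, Coro2a and Tusc1). In activated B cells 31 of the 49 had an unadjusted p below 0.05, against 8.07% of all tested genes. The comparisons share the same estimate of the spread for each gene, which also entered the choice of the 49. Genes with a small spread pass more easily in each comparison, so 8.07% is no fair baseline for them. The order of the counts of called genes depended on the setting. With a term for the arithmetic pattern they were 7 in activated B cells, 14 in pre-plasmablasts and 4 in plasmablasts, and without the wt libraries numbered 1 they were 14, 12 and 9 in that order of populations. Both ko plasmablast libraries follow one arithmetic pattern and both wt plasmablast libraries the other, so that pattern and genotype cannot be told apart within plasmablasts. Each comparison takes its means from separate libraries. Libraries with the same number may still share animals, as the Xist values of wt replicate 1 recur in the other populations.

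The ko effect in activated B cells differed from that in pre-plasmablasts for 4 genes (0.0361%) and from that in plasmablasts for 5 (0.0452%). These were Mzb1, Snora28, Cdkn2a and Atp9a in both, and Tpt1 in the second. Snora28 was at 0 in all libraries of the other populations, so no ko effect can be measured there and its difference only restates the change in activated B cells. Atp9a, a lipid-flippase-like ATPase, was barely detected in activated B cells, at 0.137 and 0.673 FPKM in ko, against 0.0788 and 0.202 FPKM in wt (log2 change 0.28, adjusted p = 0.747). Pre-plasmablasts had 13.96 and 15.3 FPKM in ko, against 2.74 and 2.23 FPKM in wt, and plasmablasts 23.2 and 25.2 FPKM in ko, against 3.43 and 3.33 FPKM in wt. The differences of the ko effect were -1.89 (adjusted p = 0.0465) and -2.25 (adjusted p = 0.00953), called in 1 of 4 and 2 of 4 fits without 1 library of activated B cells, with adjusted p up to 0.226 and 0.0584. Both calls were lost with a pseudocount of 0.1 (adjusted p = 1.00 for both). Tpt1, an abundant growth-related protein, had 71.7 and 65.4 FPKM in ko, against 51.2 and 64.4 FPKM in wt activated B cells. It had 48.3 and 55.6 FPKM in ko, against 104 and 113 FPKM in wt plasmablasts, a difference in the ko effect of 1.30 (adjusted p = 0.0194), called in 2 of 4 such fits with adjusted p up to 0.140.

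**Figure D3:**
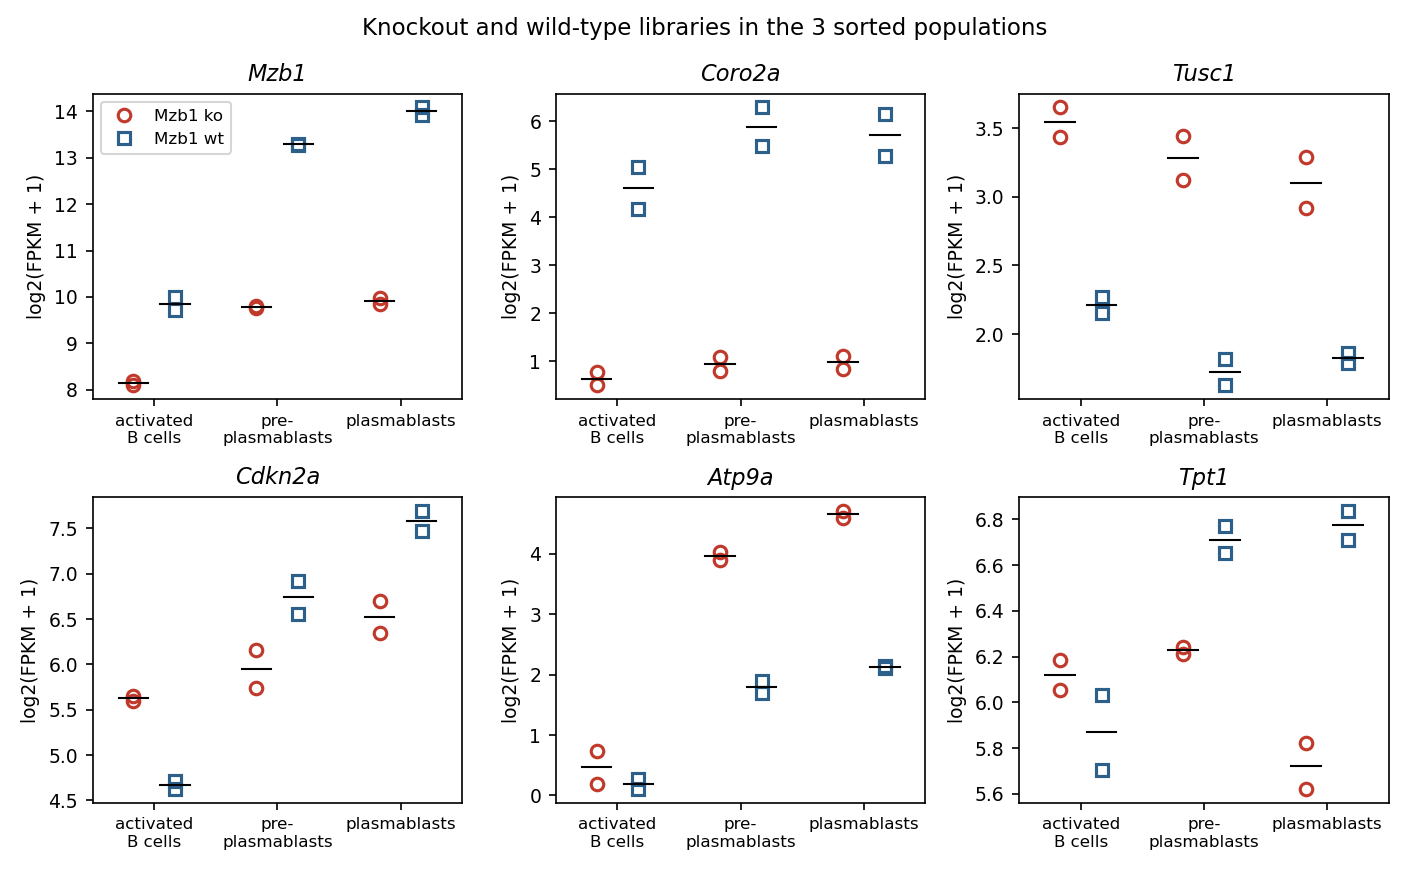
log2(FPKM + 1) of 6 genes in activated B cells, pre-plasmablasts and plasmablasts, with ko libraries as circles left of the wt libraries as squares and lines at the means. Coro2a and Tusc1 keep the order of the groups in all 3 populations, whereas Cdkn2a is higher in ko activated B cells and lower in ko cells of the other populations.

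Coro2a and Tusc1 both lie on chromosome 4, and genes with a low p were more frequent there and on chromosome 18, which holds Mzb1. Chromosomes came from RefSeq (GRCm38.p6) by symbol or synonym for 11033 of the 11069 genes, and this count was made with the calls known. On chromosome 4, 41 of 689 genes (5.95%) had an unadjusted p below 0.01, 30 of them higher in ko and 11 lower. On chromosome 18 it was 13 of 266 (4.89%), against 2.08% of all tested genes and 1.72% of those outside both chromosomes. The other autosomes and X lay between 0.68% and 3.19%. The share on chromosome 4 was between 3.19% and 6.97% over the settings and that of all genes between 0.876% and 2.95%, while chromosome 18 ranged from 1.504% to 6.39%. In pre-plasmablasts the shares were 8.71% on chromosome 4, 7.52% on chromosome 18 and 4.91% in all, and in plasmablasts 7.98%, 7.89% and 5.72%.

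**Figure D4:**
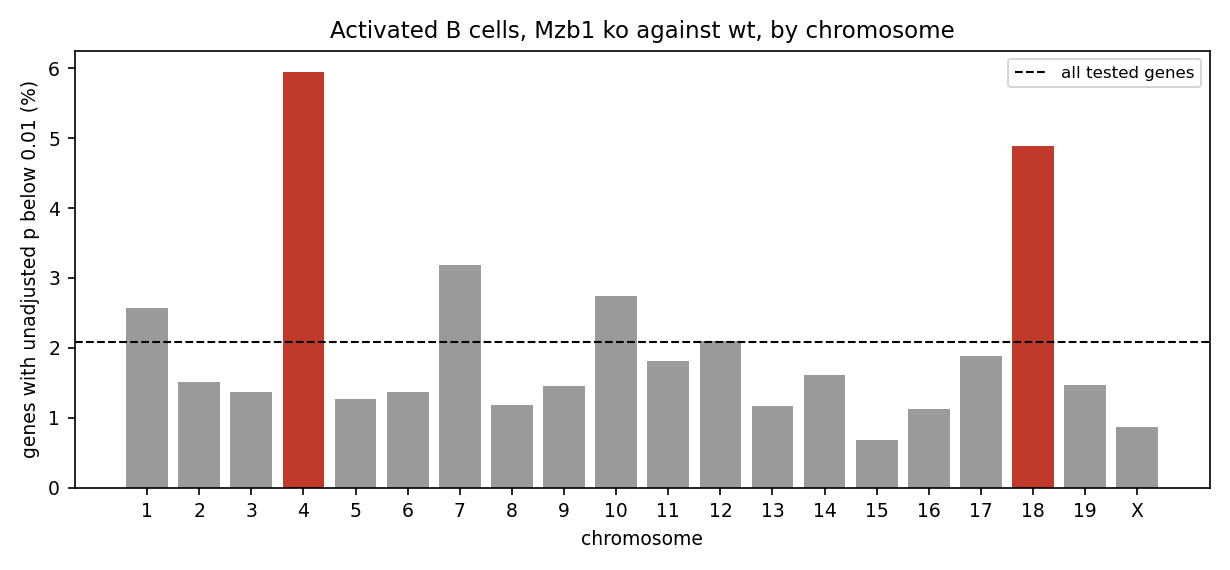
Share of tested genes with an unadjusted p below 0.01 between ko and wt activated B cells (percent) on each chromosome, with the share of all tested genes, 2.08%, as a dashed line. Chromosomes 4 and 18, in red, have shares of 5.95% and 4.89%, and the next is chromosome 7 with 3.19%.

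Along chromosome 4 the low p-values were not even. When its tested genes were put in order and cut into 10 bins, the fourth, from Kdm4c to Prpf38a, held 10 of 69 and included Tusc1, and the second, from Zfp292 to Aldh1b1, held 8 of 69, while the first and the fifth held 1 each. Near Tusc1, Mtap, a methionine salvage enzyme, had 14.6 and 15.3 FPKM in ko, against 22.3 and 22.3 FPKM in wt (-0.54, adjusted p = 0.321). Klhl9, a ubiquitin ligase adaptor, had 6.904 and 6.9997 FPKM in ko, against 9.72 and 10.99 FPKM in wt (-0.51, adjusted p = 0.321). Cdkn2b, the tested neighbour between Cdkn2a and Tusc1, had 2.92 and 5.22 FPKM in ko, against 3.08 and 4.33 FPKM in wt, with overlap. Thus Tusc1 and Cdkn2a had higher values in ko while Mtap and Klhl9 had lower ones. Next to Coro2a, the neighbours Trim14 and Tbc1d2 overlapped between the groups, and 4 steps away 5830415F09Rik had 2.35 and 1.71 FPKM in ko, against 3.71 and 4.83 FPKM in wt (-0.80, adjusted p = 0.433).

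**Figure D5:**
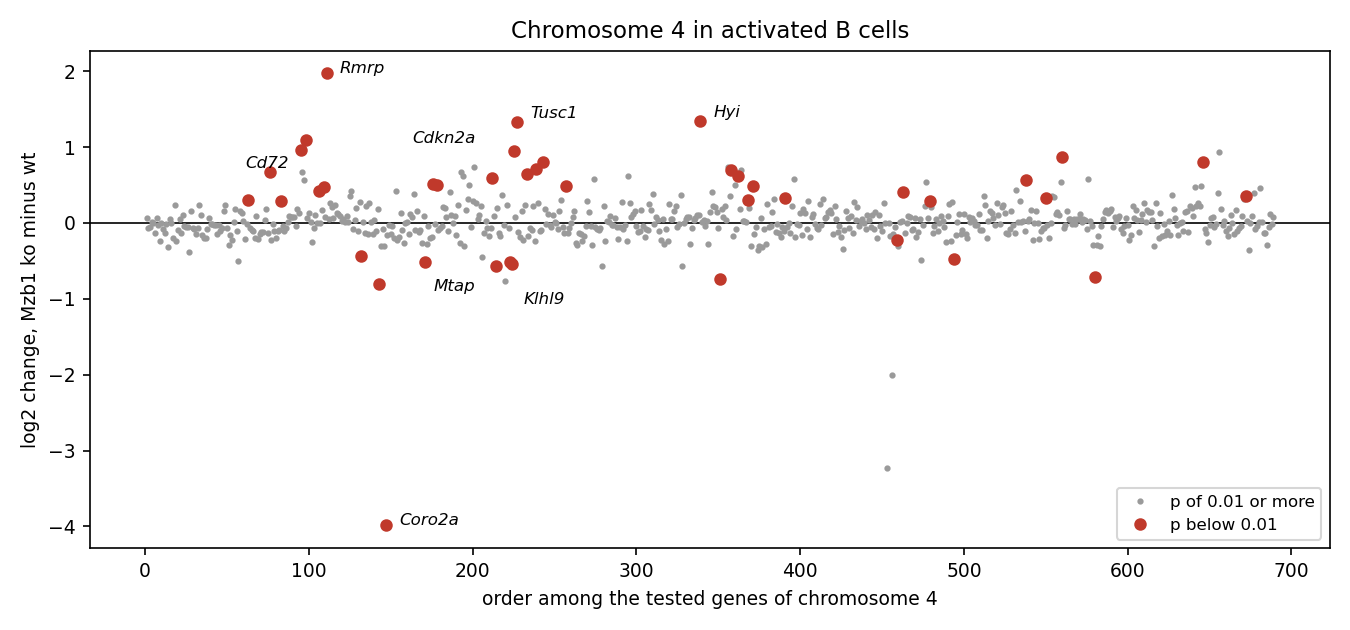
log2 change of ko over wt activated B cells (vertical axis) for the tested genes of chromosome 4 in their order (horizontal axis), with genes of unadjusted p below 0.01 as large points. Coro2a is lowest at -3.98, and Tusc1 and Cdkn2a stand close together at 1.33 and 0.95, with Mtap and Klhl9 below 0 beside them.

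Of the 40 tested genes on the list of those that flank Mzb1 on chromosome 18, 0 were called. An unadjusted p below 0.05 was reached by 10 of them, 7 higher and 3 lower in ko, against 8.07% of all tested genes, and 19 lay above 0 and 21 below. The neighbours on either side, Paip2, an inhibitor of translation, and Prob1, had both ko libraries higher, as did 18.3% of all tested genes. Paip2 had 158 and 135 FPKM in ko, against 109 and 131 FPKM in wt (0.29, adjusted p = 0.566), and Prob1 had 2.38 and 2.39 FPKM in ko, against 1.68 and 0.902 FPKM in wt (0.59, adjusted p = 0.581). Cdc23, a subunit of the anaphase-promoting complex, had the lowest p of the list, with 33.3 and 26.9 FPKM in ko, against 22.2 and 24.0 FPKM in wt (0.36, adjusted p = 0.433). Reep5, which is not on this list, stands at place 73 among the tested genes of chromosome 18, and Mzb1 at place 93. By limma, Reep5 had a lower unadjusted p than Cdc23 (6.82e-05 against 0.00556). Hspa9, the mitochondrial Hsp70, had 157 and 142 FPKM in ko, against 186 and 180 FPKM in wt (-0.29, adjusted p = 0.474). Differences in sequence around the Mzb1 alleles, if there are any, and the loss of Mzb1 itself cannot be told apart in this comparison.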

How the data were processed

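RNA of 12 libraries in 6 groups of 2 was measured, each with 1 deposited file of FPKM values for 24325 gene symbols, scaled by the authors to transcript length and library size. Per the labels, RNA was purified on RNeasy columns, selected by oligo-dT and sequenced from stranded TruSeq mRNA libraries. The submitters' processing notes name Cufflinks 2.2.1 with Cuffnorm 2.2.1 and Cuffdiff, TopHat2 2.0.14, the mm9 build, and bcl2fastq in versions 2.17.1.14 and 0.3.1. The annotation, scaling and filters are not given in the sources used here. The files hold no counts, so absolute depth is unknown and no counting interval was computed.

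Values were analysed as log2(FPKM + 1) without further scaling, for the 11069 genes that reached 1 FPKM in 2 or more libraries. limma 3.58.1 (limma-trend) in R 4.3.3 was fitted to all 12 libraries with 1 coefficient per group, giving 6 residual and 4.49 prior degrees of freedom. Tests were two-sided with Benjamini-Hochberg adjustment over all genes. An exact permutation test of 2 against 2 libraries cannot go below p = 0.333 and was not used. The model was tested on simulated data. Plots were made in Python 3.11.15 by matplotlib 3.10.9.

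The genes and 25 lists (733 symbols, 722 in the files, 657 tested) were chosen with earlier results of these data known. The rule named 15 genes and the called genes. It also named the 10 higher and 10 lower uncalled genes of lowest p without overlap and at 2 FPKM or more, the 5 of each with the largest change, the called or else the 2 to 4 lowest-p members of each list, and genes called in the other comparisons. Genes named beside these (other coronins, Pirb, the hosts Eif5 and Rpl12, and neighbours on the chromosome) were chosen after their values were seen.

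Replicate numbers were not treated as pairs: over genes, replicate differences of ko and wt correlated at -0.11, -0.08 and -0.05 in the 3 populations. The arithmetic pattern was read from genes below 0.5 FPKM, as the share of genes at the most frequent ratio between 2 libraries (log2 tolerance 0.002). Alternatives changed the filter, the pseudocount, the scaling, the libraries and the terms of the model.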

Additional observations from a re-analysis of the deposited data

Results flagged for a closer look

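For 5 genes the ko effect in activated B cells differed from that in another population by limma's interaction test at an adjusted p below 0.05. For Mzb1 the difference was 1.78 log2 units from pre-plasmablasts and 2.36 from plasmablasts. For Cdkn2a it was 1.75 and 2.01, and for Atp9a -1.89 and -2.25, both not called with a pseudocount of 0.1. For Snora28 both were -5.69, but the RNA was listed at 0 in every library of the other populations, where no ko effect can be measured, so these values only restate its change in activated B cells on the scale set by the pseudocount. For Tpt1 it was 1.30 from plasmablasts.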

How the results depend on the processing

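Against 6 genes called in activated B cells, there were 10 with no filter (5 of the 6 among them), 3 on the libraries of this population alone (1 of the 6, Snora28, beside Snora65 and Mir8112), 14 without the wt libraries numbered 1 in all populations (4 of the 6), and 3 to 6 with 1 library of this population left out (3 to 4 of the 6). With the replicate block there were 7, with Bhlha15 (adjusted p = 0.0356) beside the 6, and the block changed no other call here. Against 13 genes called in pre-plasmablasts, there were 20 with quantile normalization, 24 with equal totals and 14 to 25 with 1 library of activated B cells left out. Against 45 in plasmablasts, there were 27 with no filter, 72 with equal totals, 9 without the wt libraries numbered 1, 4 with a term for the arithmetic pattern and 34 to 45 with 1 library left out. Against 4 genes that differed from pre-plasmablasts, there were 2 with a pseudocount of 0.1, 2 with the replicate block, 1 on libraries of 1 arithmetic pattern alone and 1 to 4 with 1 library left out. Against 5 that differed from plasmablasts, there were 2 to 10 with 1 library left out. A crossed pairing of the numbers, added because the deviations correlated at -0.11 in activated B cells, though not below -0.1 in the other populations, gave 8 calls in activated B cells, 21 in pre-plasmablasts and 77 in plasmablasts. Mzb1 kept -1.72 on the libraries of this population alone but not its call (adjusted p = 0.0713), and ranged from -1.85 to -1.59 with 1 library left out. The cause of these shifts was not tested. No change called in activated B cells had the other sign in any setting run, while among genes not called Itgb2 (-0.16 to 0.14), Itgb7 (-0.25 to 0.37) and Prdm1 (-0.04 to 0.30), for example, had both signs. Where a group was left with 1 library, its spread was taken from the other groups. Among list medians, that of the integrin chains ranged from -0.11 to 0.04 and that of plasma cell identity from -0.09 to 0.02 over the settings. The crossed pairing and the single arithmetic pattern were chosen after seeing the data. With 2 libraries a group, changes below a log2 size of about 0.28 lay within the median 95% interval.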
